A study of Mus musculus with 8 samples.

Results

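Semaphorins, ephrins and Slits are described here together with their receptors, the plexins, neuropilins, Eph receptors and Robos, as measured in mouse embryos at E9.5 in the posterior second heart field, or pSHF. They were chosen by the gene name printed for each spot of the array, so that every probe of every named gene was taken whatever its value. This gave 59 genes on 108 probes, of 27827 gene names on 41174 probes. The tissue came from Tbx5+/- embryos (written Tbx5-/+ in the labels; Tbx5 is a T-box transcription factor of the heart) and from wild-type embryos, 4 samples of each, all on a mixed background and from mothers superovulated with hormones (pregnant mare serum gonadotropin, then the human chorionic form) to enlarge litters. The pSHF was cut out between the outflow and inflow tracts with the neural tube removed, and the study's methods place the attached foregut and lateral plate mesenchyme in the piece. The samples are described as independent pools of RNA, with the number of embryos in a pool not given, and carry the embryo numbers 1, 5, 6 and 7 in both genotypes. Numbers 1 and 5 were on arrays labelled 1 and numbers 6 and 7 on arrays labelled 2. What the Tbx5 allele removes is not given in the sources used here, and as heterozygotes the embryos kept 1 wild-type copy.

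Guidance cues are signals that attract, repel or sort cells by contact or over short distances, first known from growing axons. Secreted class 3 semaphorins bind a neuropilin, which signals through a plexin partner, whereas most membrane semaphorins bind plexins directly. Slits are secreted ligands of Robo receptors. Ephrins sit on cell surfaces, the A class by a lipid anchor and the B class by a transmembrane segment, and bind EphA and EphB receptor kinases on neighbouring cells. In the heart these systems are known for endothelial guidance, outflow tract septation and the entry of pulmonary veins into the atrium.

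Values are levels on a log2 scale after variance-stabilising normalisation (VSN) of 1-colour Agilent arrays, so that a difference of 1 is a 2-fold difference; levels of different probes are not comparable with each other. Tbx5 itself was lower in every Tbx5+/- sample than in every wild-type sample: 9.04, 9.75, 9.02 and 8.61 in Tbx5+/- 1, 5, 6 and 7 against 11.48, 11.54, 10.47 and 11.54 in wild-type 1, 5, 6 and 7, a difference of -2.15 ± 0.32 (SE; adjusted p in limma 0.100, and 0.0340 with the sample number as a block). Probes enter the test if all 4 arrays of at least 1 genotype read them well above background, which left 20031. Tbx5+/- 1 and Tbx5+/- 6 stood apart from the rest (array weights of 0.185 and 0.267, against 4.50 for wild-type 7), and the median level over the probes tested was lowest in Tbx5+/- 6, at 9.33, with the other arrays between 9.74 and 10.07. The median difference over all probes tested was -0.22, and under another scaling it lay at 0.13, so the differences below are also given relative to that median where they are largest.

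Of the 108 guidance cue probes, 69 probes of 50 genes were tested. All 69 were well above background on the 4 wild-type arrays, and 13 of them on fewer than 4 Tbx5+/- arrays. The 9 genes without a tested probe were the EphA receptors Epha5, Epha6, Epha8 and Epha10, the receptors Robo2 and Plxnb3, the Slit ligand Slit1, and the membrane semaphorins Sema4b and Sema4f. Epha6, Epha8 and Epha10 were not well above background on any array. Among all 39 untested probes, 18 (46.2%) were detected on more wild-type than Tbx5+/- arrays and 1 (2.56%) on more Tbx5+/- arrays, against 28.0% and 3.06% of the 21143 untested probes of the whole array.

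The widest differences among the guidance cue probes, all with Tbx5+/- lower, were those of the Sema3 receptor Nrp1, the plexin Plxna2 and the membrane semaphorins Sema6d and Sema4c; the ephrin ligand Efna1 went the other way. The difference was below 0 on 54 of 69 probes (78.3%), against 67.7% of all probes tested, and its median was -0.44 against -0.22. Under 3 other scalings (75th percentile, quantile, and VSN centred on each array's median) it was below 0 on 40, 39 and 35 of the 69. The median over all probes was 0.10, -0.01 and 0.13 under these, so the 67.7% is not their yardstick. No guidance cue probe passed an adjusted p of 0.05 in limma without a block, and neither did any other probe (0.0% of 20031), the smallest adjusted p being 0.100. At an unadjusted p under 0.05, 25 of the 69 were lower (36.2%, against 18.1% of all probes) and 2 were higher (2.90%, against 3.23%); with the 75th percentile scaling the split was 13 lower and 4 higher (8.61% and 15.6% of all probes). The levels of the 4 Tbx5+/- samples lay wholly below those of the 4 wild-type samples on 14 probes (20.3%, against 9.27% of all probes), and wholly above on 1 (against 0.784%).

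Samples of the same number deviated together in the 2 genotypes for numbers 1, 5 and 6. Tbx5+/- 7 correlated at 0.38 with wild-type 6 and at 0.14 with wild-type 7 in deviations from the group means. A fit was also made with the number as a block. In that fit 12 guidance cue probes passed an adjusted p of 0.05 in limma, 11 lower and 1 higher, where 7.74% of all probes were lower and 0.235% higher. The 12 probes belonged to 9 genes: Nrp1, Plxna2, Sema4c, Sema4g, Sema6d, Efnb3, Ephb2, Ephb6 and Efna1. Sema4c, Sema4g, Efnb3 and Ephb6 were named after these values were seen. Of the 12 probes 9, of 8 genes, were well above background on all 8 arrays; a Sema4c and an Nrp1 probe were so on 3 of 4 Tbx5+/- arrays and Ephb6 on 1, so these entered the test through the wild-type arrays. Over the 56 guidance cue probes well above background on all 8 arrays the median was -0.31, against -0.18 over all such probes. With Tbx5+/- 1 left out and no block, 17 of the 69 passed, against 16.7% of all probes, and 9 probes were in both sets (Nrp1, Plxna2, Sema4c, Sema6d, Efnb3 and Ephb2). With Tbx5+/- 6 left out none passed, and the median of the 69 was -0.31. With array weights 35 of 69 passed, against 43.8% of all probes. The permutation test the study's methods name was rewritten and run on a filter like theirs but not the same (10188 probes, 70 assignments). There 2 of 50 guidance cue probes passed a Q-value of 0.05, against 1.19% of probes lower. These were probes of Plxna2 (Q-value 0.0474) and Sema6d (0.0458), both just under the threshold.

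**Figure D1:**
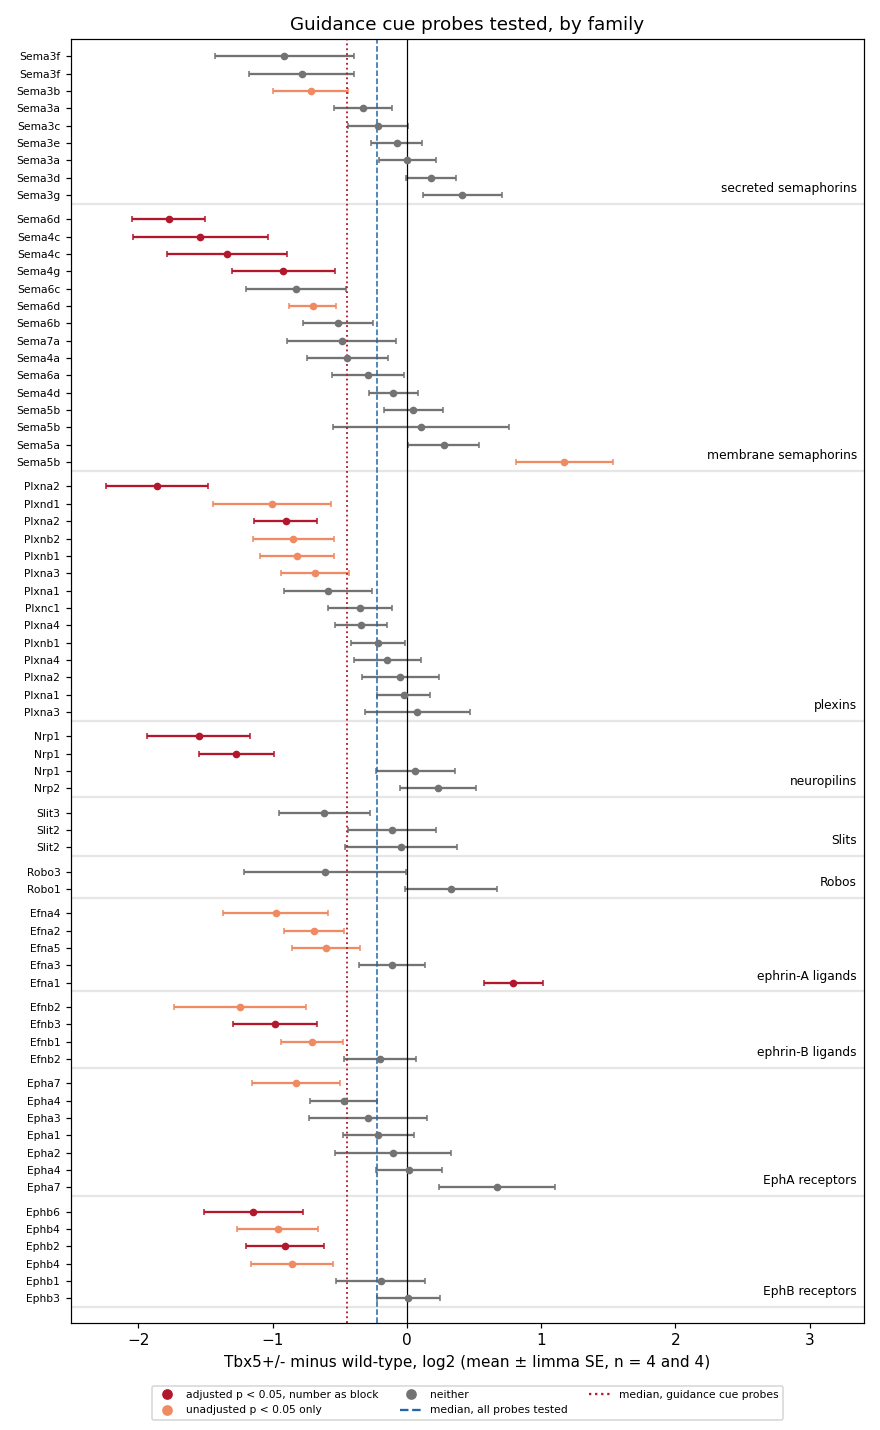
Difference of Tbx5+/- minus wild-type (log2, mean with the limma SE, n = 4 and 4) on each of the 69 guidance cue probes tested, grouped by family. Red points passed an adjusted p of 0.05 with the number as a block, orange points only an unadjusted p of 0.05, and the dashed and dotted lines are the medians of all probes tested (-0.22) and of the guidance cue probes (-0.44).

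Within each number the comparison gave a like sign but not a like size. The median of the 69 probes was -0.29 for number 1, -0.35 for number 5, -0.76 for number 6 and -0.54 for number 7, beside -0.26, -0.04, -0.39 and -0.18 over all probes tested. Number 1 was the exception in its share: 60.9% of guidance cue probes were lower there, against 81.3% of all probes, whereas in the other 3 numbers the guidance cue share was the higher of the 2.

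Nrp1, the neuropilin that binds class 3 semaphorins and also acts as a co-receptor for vascular endothelial growth factor, was read by 3 tested probes that did not give the same answer. The last 30 bases of each 60-base probe are printed to show that they are different targets, 2 on the RefSeq transcript and the third on a RIKEN cDNA whose probe holds the polyadenylation hexamer AATAAA (in capitals), a letter string present in 4.86% of all probes tested.
Nrp1 A_51_P469285, mm9 chr8:131026650-131026709, plus strand: aactgaacccacagagtaattactcagagg
Nrp1 A_52_P371237, mm9 chr8:130992273-130992332, plus strand: attacagcatccaatcaagccgacaggaat
Nrp1 A_52_P174942, mm9 chr8:130884009-130884068, plus strand: aatgaaagtcgcactgtcAATAAAggcttt

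On A_51_P469285 the Nrp1 level was 8.36, 8.27, 7.39 and 7.48 in Tbx5+/- 1, 5, 6 and 7 and 9.56, 8.89, 8.998 and 9.13 in wild-type 1, 5, 6 and 7. Every Tbx5+/- sample was below every wild-type sample, numbers 6 and 7 lowest. This probe was 2.41-fold lower (-1.27 ± 0.28, SE), or -1.05 once the all-probe median is taken off, with an adjusted p of 0.104 in limma without a block and 0.0340 with it. On A_52_P371237 the Nrp1 level was 7.06, 7.44, 5.76 and 6.97 in Tbx5+/- and 9.07, 8.05, 7.98 and 8.33 in wild-type, again with no overlap. That probe was 2.93-fold lower (-1.55 ± 0.38), with an adjusted p of 0.110 in limma without a block and 0.0340 with it. On A_52_P174942, from the RIKEN record, the levels were 6.79, 7.86, 7.69 and 7.71 in Tbx5+/- and 7.95, 7.57, 7.26 and 7.02 in wild-type. These overlapped, with a difference of 0.06 ± 0.29. Within arrays labelled 1 and within those labelled 2, the difference of A_52_P371237 was -1.31 and -1.79.

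Nrp2, the second neuropilin, had 1 probe, whose groups overlapped: 13.72, 14.46, 15.08 and 14.56 in Tbx5+/- and 14.04, 14.11, 14.22 and 14.51 in wild-type. Its difference was 0.23 ± 0.28 (adjusted p in limma 0.618).

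The secreted semaphorins, the neuropilin ligands, were all measured (7 genes on 9 tested probes), and none passed an adjusted p of 0.05 in limma with or without the block. Their median difference was -0.22, equal to that of all probes at 2 decimals, and between 0.01 and 0.13 under the other 3 scalings. Sema3b, a repulsive ligand in axon guidance, was the only one with an unadjusted p under 0.05: its levels were 9.16, 8.67, 7.79 and 8.44 in Tbx5+/- and 9.45, 9.17, 9.06 and 9.25 in wild-type, a difference of -0.72 ± 0.28. The ranges met, since Tbx5+/- 1 lay within the wild-type values. Sema3f, a ligand that prefers Nrp2, differed by -0.91 ± 0.52 on its brighter probe, where Tbx5+/- 6 stood at 7.59 and the other Tbx5+/- samples between 9.06 and 10.11. Without a block Sema3f had an adjusted p of 0.303 in limma. Sema3c, needed for septation of the outflow tract, differed by -0.22 ± 0.22, Sema3a by -0.32 ± 0.22 on its brighter probe, Sema3d, whose loss is known to misroute pulmonary veins, by 0.18 ± 0.19, and Sema3e, the Plxnd1 ligand, by -0.08 ± 0.19. Sema3g was higher by 0.41 ± 0.29 with overlapping samples.

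Among the plexins, the signalling receptors of semaphorins, 13 of 14 tested probes had a difference below 0, against 67.7% of all probes with this scaling. Their median was -0.47. Under the other 3 scalings 7 to 9 of 14 were below 0, with medians of -0.21, -0.13 and -0.12. At an unadjusted p under 0.05 in limma, 6 probes of 5 genes were lower, against 18.1% of all probes. Plxna2, a receptor of class 6 semaphorins and a partner of neuropilins, was read by 3 probes on the same RefSeq transcript. They are shown from the one nearest the start of the transcript to the one nearest its end.
Plxna2 A_51_P110529, mm9 chr1:196638380-196638439, plus strand: tctcaaaaggaaagatgggatgagtgaagg
Plxna2 A_52_P431981, mm9 chr1:196640289-196640348, plus strand: tatgatgattcacaaccagccatgccaagg
Plxna2 A_51_P229602, mm9 chr1:196642958-196643017, plus strand: ttttgcaagccaaggacacaatttgtactg

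On A_52_P431981 the Plxna2 level was 10.22, 9.29, 8.42 and 9.18 in Tbx5+/- 1, 5, 6 and 7 and 10.73, 11.38, 10.76 and 11.70 in wild-type. The groups did not overlap, and Tbx5+/- 1 was the closest to the wild-type samples. This was the widest difference of any guidance cue probe, 3.64-fold lower (-1.86 ± 0.38), or -1.64 with the all-probe median taken off, with an adjusted p of 0.103 in limma without a block and 0.0340 with it. On A_51_P110529 Plxna2 stood at 10.37, 9.96, 9.63 and 9.69 in Tbx5+/- and 10.91, 10.87, 10.38 and 11.08 in wild-type. There too no sample overlapped, and the difference was -0.90 ± 0.24 (adjusted p in limma 0.120 without a block, 0.0414 with it). On the third probe, A_51_P229602, Plxna2 levels were 12.16, 13.34, 13.18 and 13.32 in Tbx5+/- and 12.77, 13.16, 12.90 and 13.35 in wild-type, a difference of -0.05 ± 0.29. The groups were mixed on that probe, and its sign turned to 0.34 with the 75th percentile scaling.

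The B-class plexins Plxnb1 and Plxnb2, receptors of class 4 semaphorins, and Plxnd1, the endothelial plexin, also lay lower in Tbx5+/- and did not pass with the block. Plxnb1 was 11.75, 11.66, 10.55 and 11.36 in Tbx5+/- and 12.08, 12.21, 11.95 and 12.35 in wild-type on A_52_P308465, with no overlap and a difference of -0.82 ± 0.27, but -0.22 ± 0.20 on its other probe. Plxnb2 differed by -0.84 ± 0.30 and Plxnd1 by -1.01 ± 0.44, with unadjusted p of 0.0185 and 0.0457 in limma and adjusted p of 0.0573 and 0.0707 with the block. In both, Tbx5+/- 6 was the lowest sample, and without it the differences of Plxnb2 and Plxnd1 were -0.59 and -0.53. Plxna1 differed by -0.59 ± 0.33 and Plxna4 by -0.34 ± 0.19 on their brighter probes (-0.26 and -0.32 without Tbx5+/- 6), and neither had an unadjusted p under 0.05. Plxnc1, the Sema7a receptor, differed by -0.35 ± 0.24.

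Membrane semaphorins held the smallest p of all guidance cue probes. Of 15 tested probes, 5 of 3 genes were lower and 1 was higher at an unadjusted p under 0.05 in limma (against 18.1% and 3.23% of all probes). Their median was -0.49, and -0.35, -0.26 and -0.13 with the 75th percentile, quantile and centred scalings. Sema6d, a ligand of A-class plexins known from the developing heart, had 2 tested probes, 1 on a RefSeq transcript and 1 on a RIKEN cDNA.
Sema6d A_51_P415755 (RIKEN record), mm9 chr2:124487717-124487776, plus strand: tgtcagcttttagattttacacctctcttg
Sema6d A_51_P500002 (RefSeq transcript), mm9 chr2:124493141-124493200, plus strand: ccccgataacattttgtaacattgtgctgc

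On A_51_P415755 the Sema6d level was 8.05, 7.56, 8.07 and 8.08 in Tbx5+/- 1, 5, 6 and 7 and 8.97, 9.89, 9.89 and 10.09 in wild-type. The 4 Tbx5+/- samples lay close together, all below the lowest wild-type sample, number 1. Sema6d was 3.41-fold lower on this probe (-1.77 ± 0.27), or -1.55 with the all-probe median taken off, with an adjusted p of 0.100 in limma without a block and 0.0340 with it; without wild-type 1 it was the only guidance cue probe past an adjusted p of 0.05, where 1.01% of all probes passed lower. On A_51_P500002 the levels were 10.24, 10.42, 9.95 and 10.29 in Tbx5+/- and 10.98, 10.84, 10.91 and 10.98 in wild-type. These were also apart, by -0.70 ± 0.18 (adjusted p in limma 0.114 without a block, 0.0529 with it).

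Sema4c, a Plxnb2 ligand, was lower on both of its tested probes. On A_51_P170651 its levels were 10.67, 9.71, 7.85 and 9.39 in Tbx5+/- and 11.09, 11.23, 10.53 and 10.93 in wild-type, 2.90-fold lower (-1.54 ± 0.50). Tbx5+/- 1 overlapped the wild-type range and Tbx5+/- 6 was far below the rest. Without Tbx5+/- 6 the difference on this probe was -1.02. On A_52_P659904 the levels were 8.15, 7.87, 5.87 and 7.28 against 8.71, 8.93, 8.19 and 8.71, a difference of -1.34 ± 0.45 with no overlap. The adjusted p in limma was 0.177 and 0.182 without a block and 0.0397 and 0.0386 with it. Sema4g was 7.61, 8.95, 7.76 and 8.46 in Tbx5+/- and 8.23, 9.59, 9.16 and 9.49 in wild-type. Its groups overlapped, yet each Tbx5+/- sample was below the wild-type sample of its number, and its difference of -0.92 passed with the block (adjusted p 0.0409 in limma) and not without it (0.220).

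Sema5b went the other way on 1 of its 3 probes. On A_52_P385824 it was 8.58, 7.74, 8.57 and 7.57 in Tbx5+/- and 6.40, 7.82, 6.96 and 6.60 in wild-type, a difference of 1.17 ± 0.36 (adjusted p 0.162 in limma, 0.0645 with the block). Number 5 did not share the direction, and the other 2 Sema5b probes differed by 0.05 and 0.11. Sema5a differed by 0.28 ± 0.26, Sema4d, a Plxnb1 ligand, by -0.10 ± 0.18, and Sema6a by -0.29 ± 0.27.

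**Figure D2:**
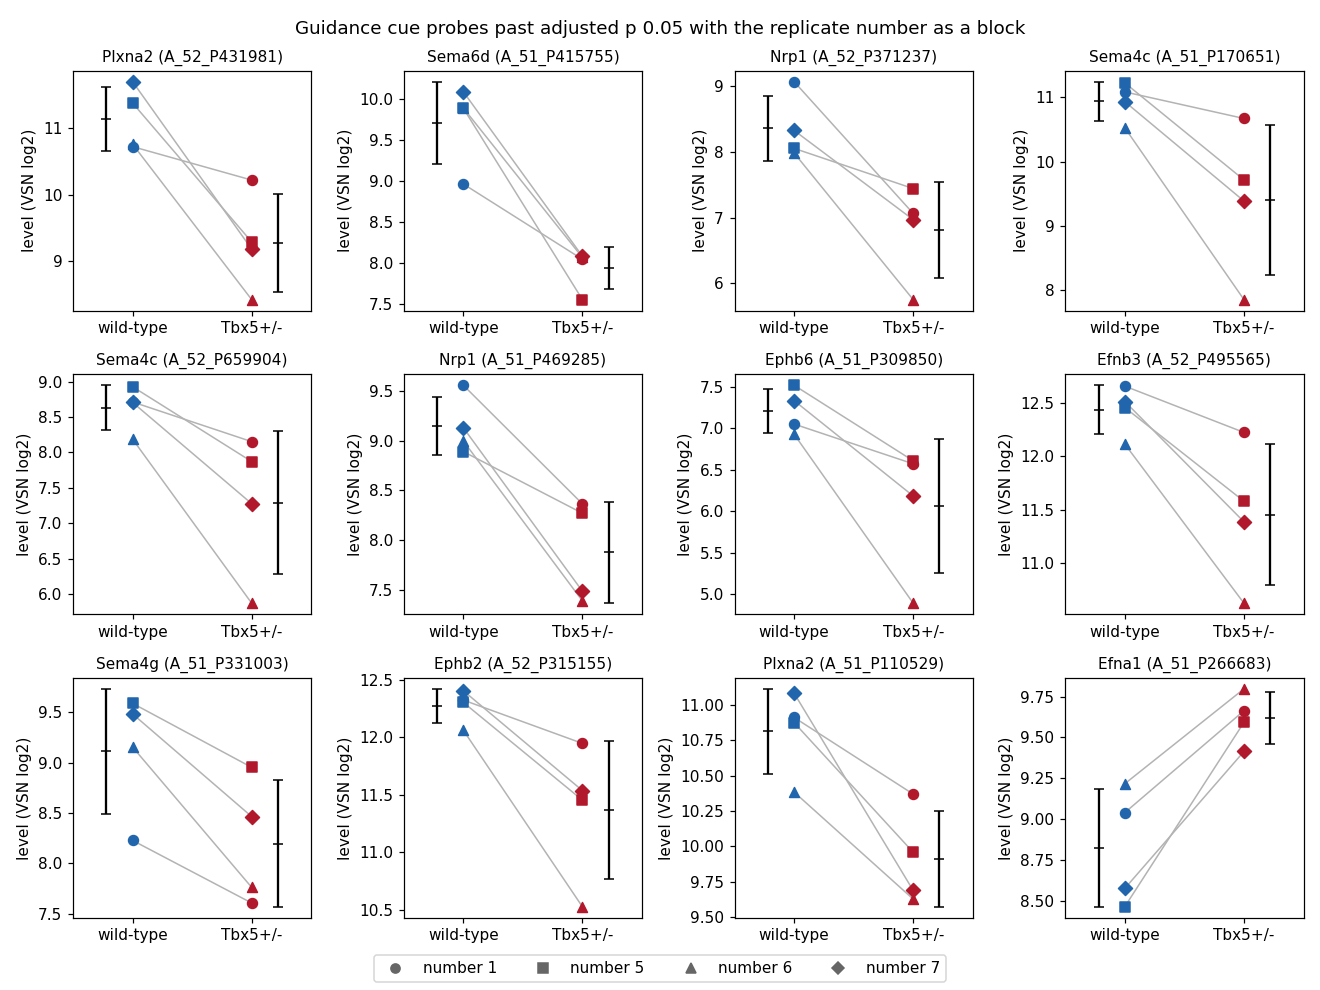
Levels (VSN log2) of the 12 guidance cue probes that passed an adjusted p of 0.05 with the number as a block. Each point is 1 sample, grey lines join samples of the same number, and the black bars give mean ± SD (n = 4); on 11 probes each line falls from wild-type to Tbx5+/-, and on the Efna1 probe each rises.

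The Slit ligands and Robo receptors had 5 tested probes, none with an unadjusted p under 0.05. Slit2 levels were 11.44, 12.37, 11.88 and 12.34 in Tbx5+/- and 10.76, 12.72, 12.21 and 12.50 in wild-type on its brighter probe, a difference of -0.04 ± 0.42 with full overlap. Slit3, known to be expressed in the developing heart, was 9.64, 11.10, 9.87 and 10.34 in Tbx5+/- and 10.36, 11.17, 10.72 and 11.16 in wild-type. Each Slit3 value in Tbx5+/- was below its wild-type counterpart by number, but the groups overlapped, and the difference of -0.61 ± 0.34 had an adjusted p of 0.288 in limma without a block and 0.0852 with it. Robo1 was 11.38, 12.95, 13.05 and 12.33 in Tbx5+/- and 12.05, 12.02, 12.12 and 12.19 in wild-type. Its wild-type samples were close together while Tbx5+/- 1 was below and the other 3 above them, so that the difference was 0.33 ± 0.34. Robo2 had 4 probes, none tested, of which 1 was well above background on 3 wild-type arrays and no Tbx5+/- array.

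Among the ephrin-A ligands, only Efna1 passed with the block; Efna2, Efna4 and Efna5 had differences below 0 and passed neither fit. Efna1, an EphA2 ligand of endothelium and epithelium, was read by 1 probe on the minus strand.
Efna1 A_51_P266683, mm9 chr3:89076171-89076230, minus strand: cctgcagtttctgcctttaagccaaagaaa

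The Efna1 level was 9.66, 9.59, 9.80 and 9.41 in Tbx5+/- 1, 5, 6 and 7 and 9.04, 8.46, 9.22 and 8.58 in wild-type. Every Tbx5+/- sample was above every wild-type sample, the only one of the 69 probes tested of which this was true. Efna1 was 1.73-fold higher (0.79 ± 0.22), or 1.01 with the all-probe median taken off, with an adjusted p of 0.134 in limma without a block and 0.0441 with it. Within arrays labelled 1 and 2 the difference was 0.88 and 0.71. Efna2 was 8.37, 8.20, 7.53 and 8.19 in Tbx5+/- and 8.72, 8.86, 8.55 and 8.92 in wild-type, apart by -0.69 ± 0.22 (adjusted p 0.0578 in limma with the block). Efna4 differed by -0.98 ± 0.39 and Efna5 by -0.60 ± 0.25, each with overlapping samples. Efna3 differed by -0.11 ± 0.25.

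All 4 probes of the ephrin-B ligands, which can signal back into the cell that bears them, had a difference below 0, against 67.7% of all probes. With the arrays centred or with the 75th percentile scaling 3 of 4 did. The median was -0.84, or -0.44, -0.67 and -0.49 with the 75th percentile, quantile and centred scalings. Efnb3 was 12.22, 11.58, 10.62 and 11.39 in Tbx5+/- and 12.66, 12.46, 12.11 and 12.51 in wild-type. Only Tbx5+/- 1 reached the wild-type range, and the difference of -0.98 ± 0.32 had an adjusted p of 0.174 in limma without a block and 0.0408 with it. Efnb1 was 13.39, 13.25, 12.51 and 12.95 against 13.61, 13.81, 13.53 and 13.98, with no overlap and a difference of -0.71 ± 0.23 (adjusted p 0.0671 in limma with the block). Efnb2, the arterial ephrin, differed by -0.20 ± 0.27 on its brighter probe and by -1.24 ± 0.49 on the other, which was well above background on only 2 of 4 Tbx5+/- arrays.

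The B-class Eph receptors had a median difference of -0.88 over 6 probes (-0.51, -0.59 and -0.53 with the 75th percentile, quantile and centred scalings). On 4 of the 6 the genotypes did not overlap, with Tbx5+/- lower (against 9.27% of all probes). The Ephb6 probe and the second Ephb4 probe, both among the 4, entered the test through the wild-type arrays. Ephb2, a receptor of B-class ephrins, was 11.95, 11.45, 10.52 and 11.54 in Tbx5+/- and 12.32, 12.30, 12.06 and 12.41 in wild-type. The genotypes were apart with Tbx5+/- 6 lowest, and the difference of -0.91 ± 0.29 had an adjusted p of 0.170 in limma without a block and 0.0482 with it. Ephb6, a member without kinase activity, was 6.57, 6.61, 4.89 and 6.18 in Tbx5+/- and 7.05, 7.52, 6.93 and 7.33 in wild-type. It was well above background on 1 of 4 Tbx5+/- arrays and all wild-type arrays, so that its level in Tbx5+/- and the size of its difference are uncertain. The difference of -1.14 ± 0.37 passed with the block (adjusted p 0.0425 in limma) and not without it (0.174). Ephb4, the venous receptor of Efnb2, was 10.90, 11.18, 9.70 and 10.72 in Tbx5+/- and 11.48, 11.59, 11.24 and 11.63 in wild-type on its brighter probe, and its 2 probes differed by -0.86 ± 0.31 and -0.96 ± 0.30, both without overlap, the second probe being well above background on only 2 of 4 Tbx5+/- arrays. Their adjusted p with the block was 0.0548 and 0.0526 in limma. Ephb1 and Ephb3 had overlapping groups, with differences of -0.20 ± 0.33 and 0.01 ± 0.23.

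The A-class Eph receptors had a median difference of -0.21, which turned to between 0.09 and 0.17 under the other 3 scalings, and none passed with the block. Epha7 was split: its brighter probe was 10.57, 11.19, 9.64 and 11.01 in Tbx5+/- and 11.40, 11.56, 11.13 and 11.64 in wild-type (difference -0.83 ± 0.33), while A_52_P306236 was 6.26, 8.11, 8.29 and 8.16 against 7.49, 6.86, 7.08 and 6.71 (0.67 ± 0.43). On that second probe Tbx5+/- 1 was the lowest of all 8 samples and the other 3 Tbx5+/- samples were the highest; without Tbx5+/- 1 its adjusted p was 0.0158 in limma. Epha2, a receptor of Efna1, was 12.23, 10.56, 9.84 and 10.64 in Tbx5+/- and 10.94, 11.02, 10.96 and 10.76 in wild-type. Tbx5+/- 1 lay above and the other 3 Tbx5+/- samples below all wild-type samples, for a difference of -0.10 ± 0.43. Epha4 differed by 0.01 ± 0.25 on its brighter probe, Epha3 by -0.29 ± 0.44 and Epha1 by -0.21 ± 0.26.

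Probes of the same gene often gave different values. Of 16 genes with more than 1 tested probe, 3 had an unadjusted p under 0.05 on every probe (Sema4c, Sema6d and Ephb4), 7 on some of their probes and 6 on none, and in 6 genes the probes differed from each other by more than 1. Where 2 probes lay on the same transcript record, the one nearer its start was the lower of the pair in 8 of 12 guidance cue genes, beside 69.9% of 3687 records over the whole array. The median gap between upstream and downstream probes over those 3687 records was -1.25, -1.63, -1.77 and -1.71 in Tbx5+/- 1, 5, 6 and 7 and -1.22, -1.37, -1.46 and -1.37 in wild-type, wider in the Tbx5+/- sample of each number. With each array's gap as a covariate no probe of the array passed an adjusted p of 0.05 in limma, with or without the block. Of the 69 guidance cue probes 16 and 11 then had an unadjusted p under 0.05 in limma without and with the block, in either direction. The share of all probes in those fits is not given here, so these counts cannot be set against it. The part of RNA quality in these differences was not tested.

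**Figure D3:**
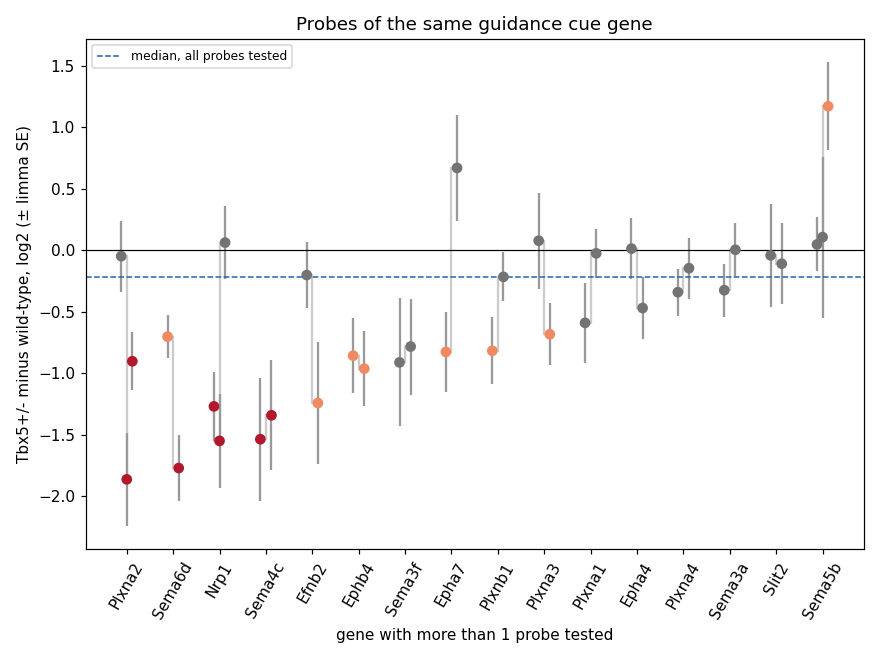
Difference of Tbx5+/- minus wild-type (log2, with the limma SE, n = 4 and 4) on each probe of the 16 guidance cue genes with more than 1 probe tested; points of a gene run from the probe brightest in wild-type at the left. Red points passed an adjusted p of 0.05 with the number as a block, orange points only an unadjusted p of 0.05, and Plxna2, Nrp1 and Epha7 have probes both near or above 0 and well below it.

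The other genes of the pathway comprised netrins and RGMs with their receptors, further guidance receptors and ligands, and effectors inside the cell. Of 72 such genes 64 were tested on their brightest probe. None passed an adjusted p of 0.05 in limma without a block, and with it 6 passed, all lower (9.38%, against 7.74% of all probes). Counting by an unadjusted p under 0.05 gave 14 genes lower (21.9%, against 18.1%) and 1 higher, and the median difference was -0.32, so these shares lay near those of all probes. The 6 were Ntn3, a netrin (-1.21 ± 0.31), the netrin receptor Unc5c (-1.23 ± 0.32), Flrt2, a ligand of Unc5 receptors (-1.93 ± 0.35), Kdr, the endothelial growth factor receptor that partners Nrp1 (-1.15 ± 0.27), Dpysl3, a collapsin response mediator (-1.51 ± 0.37), and Mical2, an actin-oxidising enzyme (-1.12 ± 0.21). Kdr levels were 11.12, 10.92, 10.08 and 10.79 in Tbx5+/- and 11.59, 12.01, 11.62 and 12.28 in wild-type, with no overlap. Dock1, a Rac activator, was the gene that was higher at an unadjusted p under 0.05 (1.03 ± 0.39).

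Many guidance genes are expressed by endothelium. Of 10 endothelial markers, all tested, none passed an adjusted p of 0.05 in limma without a block, and with it Kdr alone passed, the gene already counted above. At an unadjusted p under 0.05, 4 were lower (against 18.1% of all probes), and 8 had a difference below 0 (against 67.7%), with a median of -0.66; their mean level ran from 9.98 to 10.83 in Tbx5+/- and from 10.97 to 11.20 in wild-type. Tie1 differed by -0.98 and Cldn5 by -0.87, while Cdh5 and Esam differed by 0.12 and -0.02. Markers of the pSHF itself, Tbx5 among them, had a median of -0.54 over 10 genes, 5 of them lower at an unadjusted p under 0.05 (against 18.1% of all probes) and 5 past an adjusted p of 0.05 in limma with the block. Without Tbx5, 4 of 9 were lower at an unadjusted p under 0.05 and the median was -0.0098. Over the 10 markers the mean level ran from 9.99 to 10.93 in Tbx5+/- and from 10.95 to 11.35 in wild-type, a separation that rests on Tbx5. Without Tbx5 the means of the 2 genotypes overlapped, Tbx5+/- 5 lying above wild-type 6. Neural crest markers had a median of -0.14 (6 of 8 tested) and neural tube markers -0.18 (7 of 10 tested), with mean levels that overlapped between genotypes; the neural gene Sox1 was not well above background on any array. Among the Tbx5+/- samples number 1 stood apart. Its neural tube mean was 10.40, against 9.10 to 9.69 in the others. Its Sox2 was 11.08 (others 8.18 to 8.46) and its Pax6 10.57 (7.06 to 7.71), while its Tubb3 was the lowest. Of the pSHF markers its Aldh1a2 was 11.65 (others 14.40 to 14.61) and its Wnt2 12.42 (14.57 to 14.63). Its Foxf2 was also the lowest, while its Tbx1 and Hoxb1 were the highest. The cause was not tested. Cardiomyocyte markers, all 8 tested although the heart was cut away, had a median of -0.02, foregut markers -0.35, liver bud markers -0.91 over 5 of 7, primitive erythrocyte markers -0.18 over 6 of 7, and somite markers 0.17 over 3 of 6, with Myf5 not well above background on any array. In dissected tissue, fewer cells of a type and less RNA per cell cannot be told apart, and the part of cell make-up in the guidance cue differences was not tested.

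**Figure D4:**
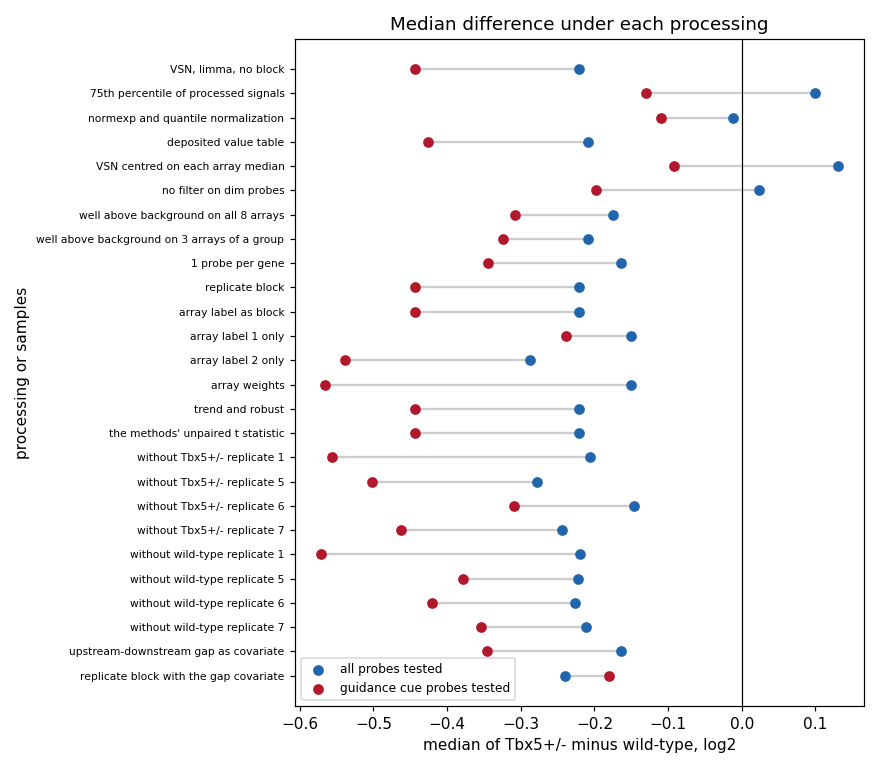
Median difference of Tbx5+/- minus wild-type (log2) over the guidance cue probes tested (red) and over all probes tested (blue), under each processing or choice of samples. The red point lies left of the blue one in each line but the last, where the number as a block and the upstream-downstream gap were fitted together (-0.18 against -0.24).

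How low the guidance cue probes stood depended on the scaling of the arrays, while their place relative to all probes moved less. Their median was -0.13 with the 75th percentile scaling (all probes 0.10), -0.11 with quantile normalisation (all probes -0.01) and -0.09 with VSN values centred on each array's median (all probes 0.13). With the arrays centred, 8 of the 12 probes whose groups did not overlap were lower and 4 higher. The share of all probes without overlap under the centred scaling is not given here. Each of the 12 probes that passed with the number as a block kept its sign under the 75th percentile, quantile and centred scalings. These probes had been picked for large differences in these same data, so the kept sign is a description and not a test. The correlation between the GC content of a probe and its difference was -0.26 (Spearman, over 69 guidance cue probes on the same 8 arrays) and -0.15 over all 20031 probes tested, given as a description.

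The upstream sequences of the genes with the smallest p, Sema6d, Plxna2 and Nrp1, are printed because Tbx5 binds T-box sites; matches are descriptions of letters and do not show binding. The 250 bases before the start of transcription were taken from RefSeq (GRCm38.p6, a later build than that of the probes) and searched on both strands for the T-box core AGGTGT, read as ACACCT on the other strand, and for the Gli site GACCACCC, read there as GGGTGGTC. Capitals mark matches; no guidance cue promoter held the Gli letters, so none overlapped the T-box letters. For Sema6d the first of its 2 starts is shown; the 250 bases before the second held no match.
Sema6d, chr2:124089719-124089968, plus strand: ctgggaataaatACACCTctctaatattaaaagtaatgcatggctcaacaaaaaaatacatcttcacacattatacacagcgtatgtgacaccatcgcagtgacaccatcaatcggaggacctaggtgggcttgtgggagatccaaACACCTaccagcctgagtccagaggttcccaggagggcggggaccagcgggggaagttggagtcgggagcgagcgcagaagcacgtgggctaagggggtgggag
Plxna2, chr1:194619579-194619828, plus strand: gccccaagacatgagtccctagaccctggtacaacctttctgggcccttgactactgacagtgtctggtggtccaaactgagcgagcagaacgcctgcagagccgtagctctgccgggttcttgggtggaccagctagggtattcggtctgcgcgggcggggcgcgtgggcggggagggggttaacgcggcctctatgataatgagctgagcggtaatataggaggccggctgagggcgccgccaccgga
Nrp1, chr8:128358823-128359072, plus strand: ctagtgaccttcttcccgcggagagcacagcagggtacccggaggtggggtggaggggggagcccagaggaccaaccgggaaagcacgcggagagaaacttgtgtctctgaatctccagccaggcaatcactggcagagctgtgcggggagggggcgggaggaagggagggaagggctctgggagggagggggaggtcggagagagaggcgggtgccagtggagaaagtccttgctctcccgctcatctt

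The Sema6d sequence held the T-box letters 2 times, with first bases at positions -238 and -104 from the start, and the windows of Plxna2 and Nrp1 held neither motif. Promoter sequence was matched by symbol for 52 of the 59 genes (68 promoters). The T-box letters were in 6 of these 68 (8.82%), in the genes Ephb1, Sema3d, Sema3g, Sema4a, Sema4f and Sema6d, against 11.8% of all 32851 promoters. The Gli letters were in none of the 68, against 0.703% of all promoters.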

How the data were processed

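RNA of E9.5 pSHF (4 Tbx5+/- and 4 wild-type pools) was hybridised to 1-colour Agilent Mouse Whole Genome arrays, and the authors deposited the scanner output of Agilent Feature Extraction 10.5.1.1, holding spot intensity (linear) with 60-base probe sequences and mm9 positions, and a table of log2 values after VSN, per the labels and the study's methods. From the intensities, outlier spots (1115 over 8 arrays) were left out, background was subtracted, VSN was refitted in Python 3.11.15 (90% of probes kept, 7 iterations; r with the deposited log2 values at least 0.99987), spots of a probe were averaged, and limma 3.58.1 in R 4.3.3 (lmFit, eBayes, Benjamini-Hochberg over all 20031 probes) was fitted. The precision is limited by the number of arrays. All 108 member probes matched RefSeq, 84 by accession and 24 by symbol. Simulated data over 20021 probes with 200 changed recovered 0 of 200 at a log2 change of 1, 151 at 2 and 187 at 3. Numbers were used as a block because samples of the same number correlated in their deviations from the group means. The values were 0.44 (number 1), 0.39 (5), 0.60 (6) and 0.14 (7). Number 7 was the exception, as Tbx5+/- 7 correlated more with wild-type 6 (0.38). The pairing was taken from the data. The labels call the numbers embryos, the design text pools. P-values measure the spread between these samples. Genes named were a list of 31 known from heart or vessel development (each by its brightest tested probe) and the 5 lower and 5 higher member probes of smallest p; members and lists were chosen with earlier results of these data known. The alternatives were other scalings, filters, blocks, array weights, a rewritten form of the study's test and leaving out each sample.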

Additional observations from a re-analysis of the deposited data

Results flagged for a closer look

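In 72 groups of 4 samples (36 named probes in 2 genotypes), 5 held a sample whose gap to its nearest neighbour took up more of the group's range than the 95% critical value of Dixon's test; chance alone marks about 1 in 20 groups. On Epha7 (A_52_P306236) Tbx5+/- 1 was at 6.26 with the nearest sample at 8.11, and on Plxna2 (A_51_P229602) the same sample was at 12.16 with the nearest at 13.18. On Epha3 wild-type 1 was at 7.49 and the nearest at 9.15. On Sema4d Tbx5+/- 7 was at 6.78 and the nearest at 7.17, and on Sema6d (A_51_P415755) Tbx5+/- 5 was at 7.56 and the nearest at 8.05.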

How the results depend on the processing

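Without a block 0 of 69 guidance cue probes and 0 of 64 other pathway genes passed an adjusted p of 0.05, and 27 and 15 had an unadjusted p under 0.05. With the replicate block, which pairs samples of the same number, 12 and 6 passed, and with array weights 35 and 28. With the rewritten form of the study's test, on its own smaller set of probes, 2 of 50 guidance cue probes and 1 other pathway gene passed. Leaving out 1 sample at a time gave 0 to 17 guidance cue probes (17 without Tbx5+/- 1, 1 without wild-type 1) and 0 to 9 other pathway genes. Groups did not overlap on 8 of 50 probes with 1 probe per gene, and on 15 to 27 of 69 with 1 sample left out, against 15 of 69. With fewer samples non-overlap is easier for every probe, and the shares over all probes in these settings are not given here. The guidance cue median of -0.44 became -0.13 with the 75th percentile scaling, -0.11 with quantile normalisation, -0.092 with VSN centred on each array median, -0.20 with no filter on dim probes and -0.18 with the replicate block and the gap covariate, an alternative chosen after seeing the data, as was the gap covariate alone; with 1 sample left out it lay between -0.57 and -0.31. The cause of these changes was not tested, beyond the smaller number of probes with 1 probe per gene. Among the marker genes the block moved the calls from 0 to 5 in the pSHF list, to 1 in the endothelial list and to 1 in the liver bud list. Arrays labelled 1 or 2 alone leave 2 samples a genotype and 0 calls, with guidance cue medians of -0.24 and -0.54.

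Of 36 named probes, 16 kept their sign under every alternative run and 20 did not. In limma on all 8 samples, without a block or weights, no probe of the array passed the threshold, so this does not set the 20 apart. Those that turned were the following, each on the brightest tested probe of its gene, except Epha7. Plxna2 stands here for A_51_P229602 and Epha7 for A_52_P306236. The other named Plxna2 probe, A_52_P431981, and the other named Epha7 probe were among the 16. With the replicate block and the gap covariate, Efna5 at 0.31, Efnb2 at 0.56, Epha2 at 1.42, Epha3 at 0.42, Epha7 at -1.51, Nrp2 at -0.35, Plxna1 at 0.30, Plxna4 at 0.040, Robo1 at -0.68, Sema3c at 0.17, Sema3d at -0.016, Sema3f at 0.92, Sema4d at 0.17 and Slit2 at 0.74. In that fit the gap largely follows genotype, being wider in the Tbx5+/- sample of each number, and few arrays are left per coefficient, so its values are unstable. Efna5, Plxna1 and Sema3d turned only there. With the 75th percentile scaling, Efnb2 at 0.18, Epha2 at 0.28, Plxna2 at 0.34, Plxna4 at 0.035, Sema3a at 0.0074, Sema3e at 0.17, Sema4d at 0.095, Sema6a at 0.0076 and Slit2 at 0.34. With VSN centred on each array median, Efnb2 at 0.15, Epha2 at 0.25, Epha3 at 0.059, Plxna2 at 0.30, Plxna4 at 0.011, Sema3a at 0.027, Sema3c at 0.13, Sema3e at 0.27, Sema4d at 0.25, Sema6a at 0.063 and Slit2 at 0.31. Within arrays labelled 1, Efnb2 at 0.0088, Epha2 at 0.42, Sema3c at 0.032, Sema3f at 0.15, Sema4d at 0.0093 and Slit2 at 0.16. With the gap covariate, Efnb2 at 0.18, Epha2 at 0.73, Epha4 at -0.21, Epha7 at -0.060, Nrp2 at -0.26 and Robo1 at -0.26. With quantile normalisation, Epha2 at 0.20, Epha3 at 0.054, Plxna2 at 0.013, Sema3a at 0.062, Sema3c at 0.0011, Sema3e at 0.19, Sema4d at 0.059, Sema6a at 0.0030 and Slit2 at 0.10. Within arrays labelled 2, Epha4 at -0.14, Ephb3 at -0.37, Plxna2 at 0.12 and Sema3e at 0.18. With array weights, Epha4 at -0.21 and Plxna2 at 0.066. With 1 sample left out, Epha2 ran from -0.57 to 0.22, Epha4 from -0.18 to 0.17, Ephb3 from -0.16 to 0.17, Plxna2 from -0.16 to 0.23 and Slit2 from -0.47 to 0.18. Dim probes near background have the least certain differences, among them Ephb6 and the second probes of Efnb2 and Plxna3.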
